A study of Homo sapiens with 6 samples.

Results

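The MYC, MAX and MXD network was followed through 10 genes of the expression table, chosen by gene symbol from 18216 genes in all: MYC, MYCN, MYCL, MAX, MXD1, MXD3, MXD4, MXI1, MNT and MGA. All 10 were present, and 8 of them averaged 1 FPKM or more with one of the treatments and were tested. REH cells, an established line from a human acute lymphoblastic leukemia of B-cell precursors, were treated for 24 h with 200 nM SNS-032, a small-molecule inhibitor of CDK9 and other cyclin-dependent kinases, or with the solvent DMSO. Each group has 3 libraries, which come from this single cell line, and the labels do not say whether they were grown as separate cultures, so the p-values measure the spread between these libraries and nothing wider. The agent is spelled SNA-032 in part of the labels, and the titles spell it SNS-032.

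MYC proteins are helix-loop-helix zipper transcription factors that bind DNA only as dimers with MAX, mostly at the E-box CACGTG, where they recruit coactivators. The MXD proteins, MXI1 and MNT compete for the same partner and the same sites but recruit the SIN3-HDAC corepressor, so that MAX joins either an activating or a repressing dimer. MGA is a large MAX partner that also carries a T-box and belongs to a Polycomb complex. In B-lineage leukemia MYC is known as a driver of growth and metabolism, while most MXD genes are known for their expression in resting and differentiating cells.

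With SNS-032, transcripts of MYC were lower and those of several of its antagonists higher, relative to the other transcripts of a library. MXD1 rose 18.3-fold and MXI1 2.83-fold, MXD3 rose 1.56-fold, MYC fell 1.56-fold and MGA 3.99-fold, while MAX, MNT and MXD4 held 87.1%, 88.8% and 108% of their mean level with DMSO. Of the 8 genes tested, limma called 3 higher and 3 lower (adjusted p under 0.05). Over all 12239 genes tested, 39.9% were higher and 49.3% lower, 89.2% in either direction, so being called did not set the network apart. What varied was the size of the change, from a log2 fold change of −1.63 to 3.64 around a median of −0.03, beside −0.14 for all genes tested. Of the 8, only MXD1 reached the thresholds of the study, a log2 fold change of 2 or more in size with an adjusted p under 0.001. They were applied here to limma fold changes with 1 added to FPKM, not to the fold changes of the authors. On this scale 3.52% of genes passed as higher and 2.43% as lower. MGA, whose levels were low, was at −1.63, and at −1.96 with 0.1 added instead.

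The values are FPKM, fragments scaled to transcript length and to the mapped fragments of a library, so that levels can be set side by side between genes of a library, whereas the comparison of libraries depends on their scaling. Rises and falls given here are therefore relative to the other transcripts of a library. A change in total RNA per cell would not show in them, and whether there was one was not tested. Library sums of FPKM were 457826.4 to 464307.5 for DMSO and 470094.5 to 491886.5 for SNS-032. How deeply the libraries were sequenced is unknown, so counting error is not given. Log2 fold changes are of FPKM + 1 and understate the change of genes with low levels, while folds without that word are ratios of mean FPKM. Of 13 B-precursor markers, 12 reached 1 FPKM in both groups, with a summed level of 1860 to 2000 FPKM in the DMSO and 1160 to 1290 FPKM in the SNS-032 libraries. Summed markers of T cells were at 0.37 to 0.47 FPKM in the DMSO and 2.61 to 4.76 FPKM in the SNS-032 libraries (CD3G alone of 6 reaching 1 FPKM, with SNS-032), those of myeloid cells at 8.2 to 8.65 and 18.9 to 21.7 FPKM (LYZ and CSF1R of 6, and CD14 with SNS-032), and those of erythroid cells and megakaryocytes at 2.14 to 2.41 and 6.96 to 7.81 FPKM (ITGA2B of 3). A list written for cells outside the blood summed to 512 to 523 and 187 to 205 FPKM, but it holds VIM, which is not limited to such cells. VIM and KRT8 of 7 were above 1 FPKM in both groups, and APOA1 and KRT18 only with SNS-032. These lists moved beside the network genes, and their part in the results was not tested. In bulk RNA fewer cells of a type and less RNA per cell cannot be told apart.

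Since the E-box is what the network proteins bind, the RefSeq promoter windows of 9 network genes, 14 windows from 250 bases before to 50 bases after a gene start, were searched for CACGTG, which reads the same on both strands. MYC was not searched. The motif was found in 2 of the 14 windows, those of MXD4 and MNT, or 14.3%, beside 7.3% of all 35116 windows of the table and 9.4% of the 14388 windows of genes tested. Some genes have several windows. By gene it was found in 2 of the 9, beside 12.7% of the 9950 genes tested that have a window. With so few genes the shares are a description only. These promoters are shown because MXD4 and MNT hold the motif and did not pass the test, and because MXD1 rose most. Each stretch is the part of the window ahead of the first exon that GENCODE places in it, 5′ to 3′ on the strand of the gene and on GRCh38.p14, with CACGTG in capitals.
MXD4 (chr4:2262295-2262359, minus strand): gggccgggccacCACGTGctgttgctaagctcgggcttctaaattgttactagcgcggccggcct
MNT (chr17:2401119-2401310, minus strand): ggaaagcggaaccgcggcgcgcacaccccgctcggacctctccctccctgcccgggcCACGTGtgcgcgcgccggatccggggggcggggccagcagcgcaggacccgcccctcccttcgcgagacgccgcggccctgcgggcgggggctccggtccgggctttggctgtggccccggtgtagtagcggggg
MXD1 (chr2:69914859-69915040, plus strand): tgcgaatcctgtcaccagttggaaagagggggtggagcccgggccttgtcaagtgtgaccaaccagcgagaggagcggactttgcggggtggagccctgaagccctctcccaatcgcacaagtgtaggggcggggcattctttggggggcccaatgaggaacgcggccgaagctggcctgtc
The motif begins 238 bases before the RefSeq gene start in MXD4 and 193 bases before it in MNT. Both RefSeq starts lie inside the GENCODE span given for the gene below, so the motif is nearer to the GENCODE start. The MXD1 window holds no CACGTG, and it lies inside an intron of a longer annotated MXD1 transcript that starts farther upstream. A match describes the letters and is not a measured binding site.

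MYC, which encodes c-Myc, was the most abundant network gene in both groups. It was at 104.52, 102.23 and 104.74 FPKM in the DMSO libraries and at 65.88, 65.94 and 67.33 FPKM in the SNS-032 libraries. The groups did not overlap, and the SNS-032 libraries held 63.9% of the mean level with DMSO. The log2 fold change was −0.64 (standard error 0.039, 95% interval −0.72 to −0.55, adjusted p = 9.97e-09 from limma). With the libraries centred on their medians, which lifts SNS-032 by 0.30 on the log2 scale relative to DMSO, it was −0.34 and still passed (adjusted p = 5.18e-06). MYC therefore fell by more than the spread between libraries, while 31.9% of all genes tested fell further, and with 66.4 ± 0.82 FPKM (SD, n = 3) it stayed the first of the 10 genes. On GRCh38, the build of all gene positions given here, MYC (Entrez gene 4609) occupies 127735434 to 127741434 of chromosome 8, plus strand.

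The paralogs of MYC were at or near the floor of the table. MYCL, first found amplified in lung cancer, was at 0.24, 0.27 and 0.22 FPKM with DMSO and at 0.06, 0.10 and 0.07 FPKM with SNS-032. It was below the limit for testing, although its libraries did not overlap. MYCN, known from neuroblastoma, is listed at 0 in 5 libraries and at 0.02 FPKM in SNS-032 replicate 2. Thus MYC accounted for nearly all transcripts of the MYC family in either group.

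MAX, the shared partner of all the other network proteins, changed little. It was at 51.81, 49.66 and 48.73 FPKM with DMSO and at 39.41, 44.85 and 46.6 FPKM with SNS-032. Every SNS-032 library lay below every DMSO library, but SNS-032 replicate 1 lay farthest below and carried much of the difference. For MAX the log2 fold change was −0.20 (standard error 0.061, 95% interval −0.33 to −0.06, adjusted p = 0.00892 from limma), or −0.13 without SNS-032 replicate 1 (adjusted p = 0.0173). With the libraries centred on their medians, the direction of MAX turned, to a log2 fold change of 0.10 that did not pass the test (adjusted p = 0.141). The gene (Entrez gene 4149) lies on chromosome 14 from 65006174 to 65102695 on the minus strand.

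**Figure D1:**
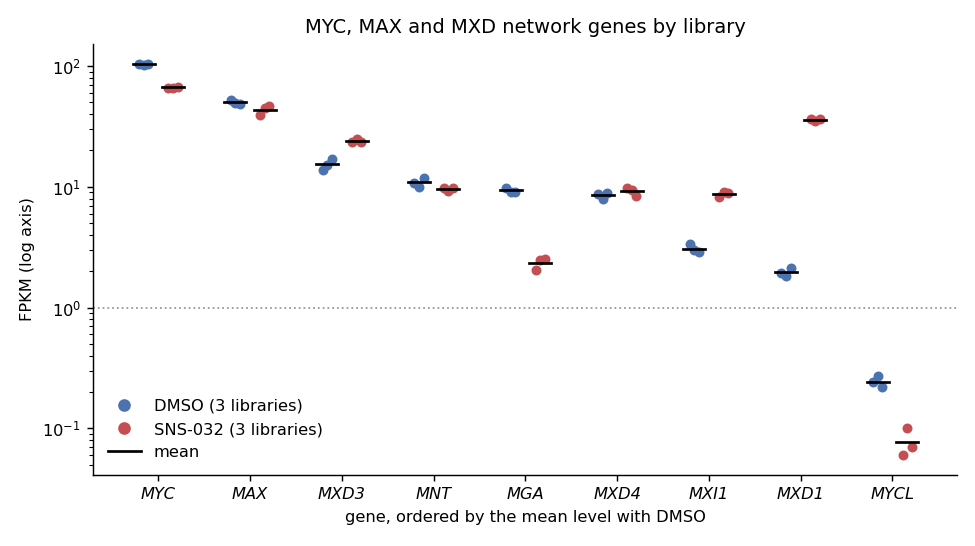
FPKM of 9 network genes in each library on a log axis, with DMSO in blue, SNS-032 in red, the group mean as a black bar and the limit for testing of 1 FPKM as a dotted line. MYC and MAX stand highest in both groups, MXD1 moves from near 2 FPKM in the DMSO libraries to 34.88 to 36.52 FPKM with SNS-032, and MYCN, listed at 0 in 5 libraries, is not drawn.

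MXD1, also known as MAD1, is the founding member of the MXD repressors and is induced during differentiation of blood cells. It was at 1.93, 1.84 and 2.13 FPKM with DMSO and at 36.52, 34.88 and 36.3 FPKM with SNS-032. The 3 SNS-032 libraries lay close to each other and far above the DMSO libraries. Its log2 fold change of 3.64 (standard error 0.062, 95% interval 3.50 to 3.77, adjusted p = 5.81e-13 from limma) was the 65th largest rise among the genes tested. The order of levels moved with it. MXD1 was the 8th of the 10 genes with DMSO, below MXI1, and the 3rd with SNS-032, below MAX and above MXD3, and in neither group did its libraries overlap with those of its neighbors in this order. The gene (Entrez gene 4084) lies on chromosome 2 from 69897688 to 69942945. It shares 237 exonic bases with SNRNP27, a splicing factor gene on the same strand, which went from 29.2 ± 1.43 to 45.8 ± 2.06 FPKM (SD, n = 3 each), a 1.57-fold rise beside the 18.3-fold rise of MXD1.

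MXI1, the MXD family member also called MXD2, rose as well. Its level was 3.35, 2.97 and 2.91 FPKM in the DMSO libraries and 8.22, 9.07 and 8.81 FPKM in the SNS-032 libraries, without overlap. For MXI1 the log2 fold change was 1.25 (standard error 0.072, 95% interval 1.09 to 1.41, adjusted p = 6.27e-09 from limma), and 11.2% of the genes tested rose more. MXI1 (Entrez gene 4601) lies on chromosome 10 from 110207605 to 110287365.

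MXD3, known from mouse as the family member of cells in S phase, was the most abundant MXD gene with DMSO. It was at 13.9, 15.28 and 16.83 FPKM with DMSO and at 23.59, 24.92 and 23.38 FPKM with SNS-032. The groups did not overlap, though the DMSO libraries spread more widely than those with SNS-032. Its log2 fold change was 0.62 (standard error 0.067, 95% interval 0.47 to 0.76, adjusted p = 2.66e-06 from limma). Reads of MXD3 (Entrez gene 83463, chromosome 5 from 177301461 to 177312757, minus strand) may not all be its own, because the gene shares 926 exonic bases with RAB24 on the same strand and 1158 with PRELID1 on the opposite strand. RAB24, a small GTPase gene, went from 4.32 ± 0.214 to 5.95 ± 0.334 FPKM (SD, n = 3 each), and PRELID1, a mitochondrial lipid transfer gene, was at 97.7 ± 2.92 and 99.6 ± 3.09 FPKM (SD, n = 3 each). Whether the counting used strand is not given in the sources used here, so the values of other network genes that overlap a non-coding RNA on the opposite strand are uncertain in the same way, among them MNT with 1065 shared exonic bases, MGA with 510, MXI1 with 205 and MAX with 184.

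MXD4, known from mouse as a gene of differentiating cells, did not pass the test. It was at 8.78, 7.89 and 8.92 FPKM with DMSO and at 9.84, 9.41 and 8.44 FPKM with SNS-032, and the groups overlapped. The log2 fold change was 0.10, with a 95% interval from −0.06 to 0.26 (adjusted p = 0.202 from limma), so a rise or fall of the size seen for MXI1 or MGA lies outside the interval. Without DMSO replicate 2 the value was 0.05, without SNS-032 replicate 1 it was 0.06, and without SNS-032 replicate 3 it was 0.16 (adjusted p = 0.0594), none of which passed. It became 0.40 with the libraries centred on their medians, where it passed the test (adjusted p = 0.000175). MXD4 (Entrez gene 10608) lies on chromosome 4 from 2247432 to 2262294 on the minus strand.

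MNT, the broadly expressed MAX partner that opposes MYC in proliferating cells, lay at the edge of the test. It was at 10.71, 10.04 and 11.88 FPKM with DMSO and at 9.83, 9.29 and 9.86 FPKM with SNS-032. The groups did not overlap, a pattern that 89.7% of all genes tested showed, and DMSO replicate 2 lay closest to the SNS-032 libraries. For MNT the log2 fold change was −0.15 (95% interval −0.30 to −0.0033, adjusted p = 0.0514 from limma). Without DMSO replicate 2 it was −0.20 and passed (adjusted p = 0.0246), without DMSO replicate 3 it was −0.09 (adjusted p = 0.254), and with the libraries centred on their medians the direction turned, to 0.15 (adjusted p = 0.0658). MNT (Entrez gene 4335) lies on chromosome 17 from 2384060 to 2401118 on the minus strand.

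MGA, the scaffold of the Polycomb complex PRC1.6 and a gene lost by mutation in some leukemias, fell most. It was at 9.79, 9.14 and 9.13 FPKM with DMSO and at 2.03, 2.47 and 2.53 FPKM with SNS-032, 25.1% of its mean level with DMSO. The groups lay far apart. The log2 fold change was −1.63 (standard error 0.077, 95% interval −1.80 to −1.46, adjusted p = 1.12e-09 from limma), and 5.74% of the genes tested fell more. MGA went from the 5th place in the order of levels, just above MXD4, to the 8th, below MXI1. It is the longest of the 10 genes, spanning 151.9 kb on chromosome 15 from 41621224 to 41773081 (Entrez gene 23269). The next longest were MAX with 96.5 kb, at a log2 fold change of −0.20, and MXI1 with 79.8 kb, at 1.25. Whether length bears on the change was not tested. With SNS-032 the levels of MNT and MXD4 overlapped, as did those of MXD4 and MXI1, whereas no neighbors in the order overlapped with DMSO.

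**Figure D2:**
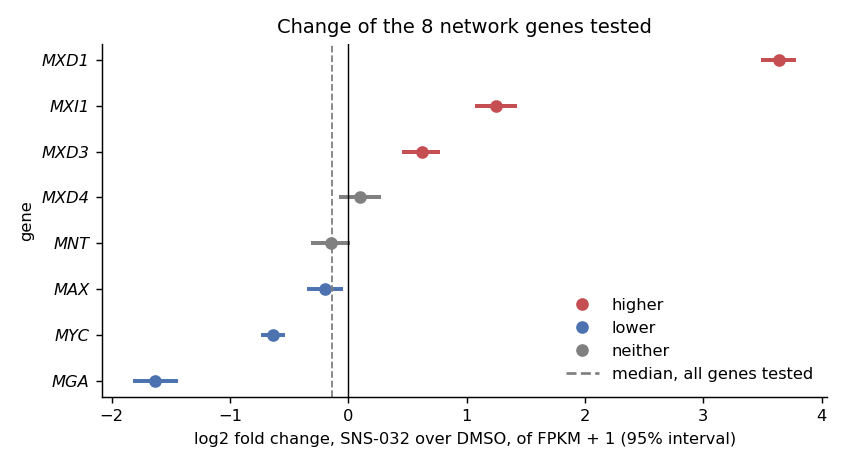
Log2 fold change of FPKM + 1, SNS-032 over DMSO, of the 8 network genes tested, with 95% intervals from limma as bars. Points in red were higher, in blue lower and in grey neither at an adjusted p under 0.05, the dashed line is the median of all genes tested at −0.14, and the genes run from MGA at −1.63 to MXD1 at 3.64.

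Set against each other within a library, the levels gave the following balance. The scaling of a library cancels out in ratios and shares, but not in sums of FPKM. The repressors MXD1, MXD3, MXD4, MXI1 and MNT together summed to 38.7, 38 and 42.7 FPKM in the DMSO libraries and to 88, 87.6 and 86.8 FPKM in the SNS-032 libraries. Their sum divided by MYC went from 0.37, 0.372 and 0.407 to 1.34, 1.33 and 1.29. The summed level of the 5 repressors thus lay below that of MYC in every DMSO library and above it in every SNS-032 library. That crossing depends on MXD3, at 23.59, 24.92 and 23.38 FPKM with SNS-032, whose reads may not all be its own. Without MXD3 the sum would lie below MYC in every SNS-032 library as well. The makeup of the sum changed most through MXD1, which held 4.84% to 4.99% of the repressor sum in the DMSO libraries but 39.8% to 41.8% in the SNS-032 libraries. MXD3 and MNT, the leading repressor genes with DMSO at 35.9% to 40.2% and 26.4% to 27.8%, held 26.8% to 28.5% and 10.6% to 11.4% with SNS-032. These ratios are descriptions of genes chosen for the network, and they are of transcripts, not of proteins or dimers.

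When MGA and MYC were added, the transcripts of these 7 partner genes of MAX summed to 149.4 to 156.5 FPKM in the DMSO libraries and to 155.9 to 156.6 FPKM in the SNS-032 libraries. The total overlapped between the groups, while of the 7 shares in it only that of MXD4 did, at 5.28% to 5.74% in the DMSO and 5.39% to 6.31% in the SNS-032 libraries. MYC took 66.9% to 68.4% in the DMSO libraries and 42.3% to 43% in those with SNS-032. In the same order, the share of MXD1 was 1.23% to 1.36% and 22.4% to 23.4%, and that of MGA 5.83% to 6.4% and 1.3% to 1.62%. MAX stood at 31.1% to 33.9% of the partner sum in the DMSO libraries and at 25.3% to 29.7% of it in the SNS-032 libraries.

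**Figure D3:**
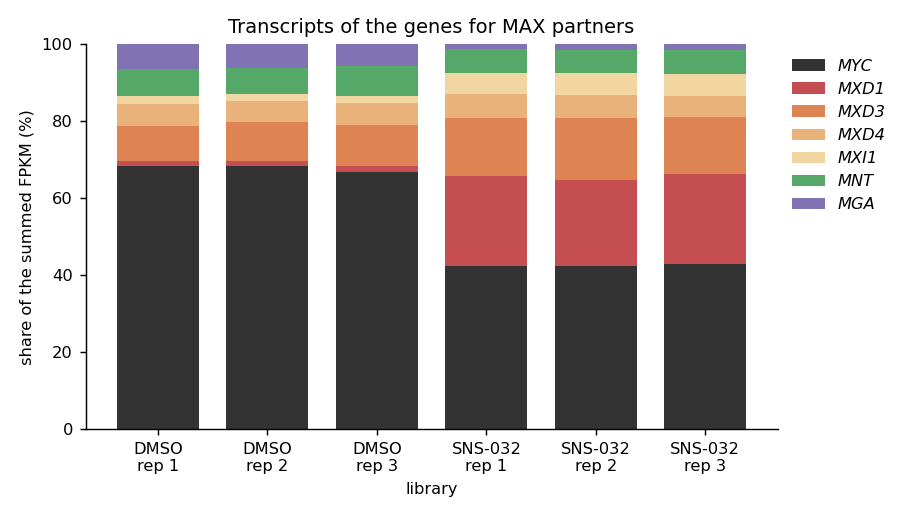
Share in percent of the summed FPKM of 7 genes that encode MAX partners, one bar for each library. The black MYC part takes 66.9% to 68.4% in the DMSO libraries and 42.3% to 43% in the SNS-032 libraries, and the red MXD1 part goes from at most 1.36% to at least 22.4%.

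The genes whose profile over the 6 libraries lay closest to a network gene were sought by Euclidean distance of log2(FPKM + 1) from the DMSO mean, among 9161 other genes averaging 5 FPKM or more with DMSO or SNS-032. For MGA these were MSH6, a mismatch repair gene, at a distance of 0.047, EPRS, the glutamyl-prolyl-tRNA synthetase gene, JADE3, PANX1 and UCHL5, the last at 0.0903. Their log2 fold changes ran from −1.64 to −1.61, although their levels with DMSO reached from 11.8 FPKM for JADE3 to 98.7 FPKM for MSH6. For MXD1 they were HIST1H3D, NPFF, GYS2, OR52N2 and GUCA1B, at distances from 0.14 to 0.155. Of these only NPFF, a neuropeptide gene, was above 1 FPKM with DMSO, as MXD1 was, and it went from 3.18 ± 0.277 to 50.8 ± 2.35 FPKM (SD, n = 3 each). The others rose by larger ratios than MXD1, among them OR52N2 from 0.03 to 11.7 FPKM and GUCA1B from 0.827 to 22.1 FPKM. Adding 1 to FPKM narrows such differences, so they match MXD1 on that scale only. HIST1H3D is a histone gene whose reads may be shared with near-identical copies.

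MLX, a MAX-like protein that pairs with MXD1, MXD4 and MNT and with the glucose-sensing factors MondoA and ChREBP, moved apart from its partner. MLX was at 36.57, 36.84 and 36.89 FPKM with DMSO and at 14.75, 14.92 and 15.23 FPKM with SNS-032, a log2 fold change of −1.24 (standard error 0.047, adjusted p = 1.61e-10 from limma). MLXIP, which encodes MondoA, was at 14.95, 15.82 and 16.3 FPKM with DMSO and at 45.68, 54.72 and 51.01 FPKM with SNS-032, a log2 fold change of 1.62 (standard error 0.066, adjusted p = 3.09e-10). MLXIPL, which encodes ChREBP, was at most at 0.19 FPKM in any library and was not tested. Of 5 listed targets of the MondoA-MLX dimer, 4 were higher and 1 lower, where 89.2% of all genes passed the test and 39.9% were higher. This list was written with results of these libraries known, and HK2, the lower gene, is also counted below among genes activated by MYC. ARRDC4, an arrestin gene, rose by a factor of 54, from 1.74 ± 0.12 to 94.2 ± 3.36 FPKM (SD, n = 3 each), TXNIP rose 58.4-fold and KLF10 88-fold, and PFKFB3, which makes the activator of phosphofructokinase, rose 2.25-fold, while HK2 fell 2.15-fold.

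Proteins that MYC works with were mostly lower at the transcript level. Of 16 genes for MYC coactivators and partner proteins, all tested, 4 were higher and 12 lower, and their median log2 fold change was −0.84, beside 49.3% lower and −0.14 over all genes. With a limit of 5 FPKM, 73.3% of the calls in the list were lower, beside 62.2% of those over the table. NMI, an interferon-induced partner of MYC proteins, fell 12.4-fold, MYCBP2, a large ubiquitin ligase, 6.5-fold, and ACTL6A, an actin-like subunit of chromatin complexes, 3.98-fold, from 78.3 ± 2.82 to 19.7 ± 0.886 FPKM (SD, n = 3 each). Among the genes that were higher, ZBTB17, which encodes the MYC partner MIZ1, rose 2.26-fold and WDR5, a subunit of histone methyltransferase complexes, 1.6-fold.

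The SIN3-HDAC corepressor genes, whose products the MXD proteins and MNT recruit, were mostly lower. Of 19 genes tested, 14 were lower, 4 higher and 1 neither, or 73.7% lower and 21.1% higher beside 49.3% and 39.9% of all genes, with a median of −0.89. With a limit of 5 FPKM, 77.8% of the calls in the list were lower, beside 62.2% of those over the table. SAP30 fell 4.43-fold, ING2 4.61-fold and the deacetylase gene HDAC2 3.7-fold, from 86.5 ± 1.1 to 23.3 ± 1.52 FPKM (SD, n = 3 each). SIN3B, a scaffold of the complex, rose by a factor of 3.34, from 9.47 ± 0.402 to 31.6 ± 2.07 FPKM (SD, n = 3 each), and ARID4A and ARID4B rose 1.66-fold and 1.6-fold. With the libraries centred on their medians 12 were lower and 7 higher.

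Of 15 genes of the MGA complex, 4 were higher, 10 lower and 1 neither, around a median log2 fold change of −0.30. That is 26.7% higher and 66.7% lower, beside 39.9% and 49.3% of all genes with their median of −0.14. With a limit of 5 FPKM, which all 15 passed, 71.4% of the calls in the list were lower, beside 62.2% of those over the table. HDAC2 and WDR5 belong to this list too. L3MBTL2, another subunit of the complex, fell 2.86-fold and RNF2, a ubiquitin ligase in it, 3.74-fold, while RYBP rose 2.18-fold and TFDP2 1.65-fold. With the libraries centred on their medians 7 were lower and 6 higher.

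Genes that control the turnover of the MYC protein moved in both directions. Of 21 tested, 7 (33.3%) rose and 14 (66.7%) fell, beside 39.9% and 49.3% of all genes, around a median log2 fold change of −0.49. With a limit of 5 FPKM, which all 21 passed, 66.7% of the calls in the list were lower, beside 62.2% of those over the table. FBXW7, the ubiquitin ligase subunit that marks MYC for degradation, rose from 7.2 ± 0.352 to 28.6 ± 0.713 FPKM (SD, n = 3 each). PLK1, a mitotic kinase, and PPP2CA, the catalytic subunit of the phosphatase PP2A, rose 3.28-fold and 2.86-fold. CIP2A, an inhibitor of PP2A that protects MYC, fell 3.91-fold, HUWE1, another ubiquitin ligase of MYC, 3.65-fold and AURKB 2.56-fold. The protein itself was not measured in these files.

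Among genes known to be activated by MYC, falls outnumbered rises by more than over the table as a whole. Of 48 tested, 42 were lower, or 87.5%, beside 49.3% of all genes, 5 were higher and 1 was neither, around a median of −1.30 on the log2 scale. With a limit of 5 FPKM, 89.4% of the calls in the list were lower, beside 62.2% of those over the table. The chaperonin genes HSPD1 and HSPE1 fell 5.92-fold and 7.33-fold, HSPD1 from 497 ± 4.27 to 84 ± 4.54 FPKM (SD, n = 3 each). NME1, a nucleoside diphosphate kinase gene, fell 7.52-fold and may share reads with its paralog NME2. WDR43, a ribosome biogenesis gene, went the other way, from 50.2 ± 0.991 to 173 ± 3.09 FPKM (SD, n = 3 each), and TERT and CDC25A rose 1.37-fold and 1.25-fold. Of 12 tested genes known to be repressed by MYC, 8 (66.7%) were higher, beside 39.9% of all genes, 3 lower and 1 neither, with a median of 0.59. GADD45A, a stress gene, rose from 12.8 ± 0.685 to 177 ± 11.3 FPKM (SD, n = 3 each), ATF3 14.9-fold and the cell-cycle inhibitor gene CDKN1A 9.81-fold. DDIT3 and CEBPA, transcription factor genes, fell 4.06-fold and 4.02-fold. These lists were written from textbook knowledge with results of these libraries known, and their direction is not independent evidence about MYC. The median of the activated genes, −1.30, lay below the log2 fold change of MYC itself, −0.64.

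**Figure D4:**
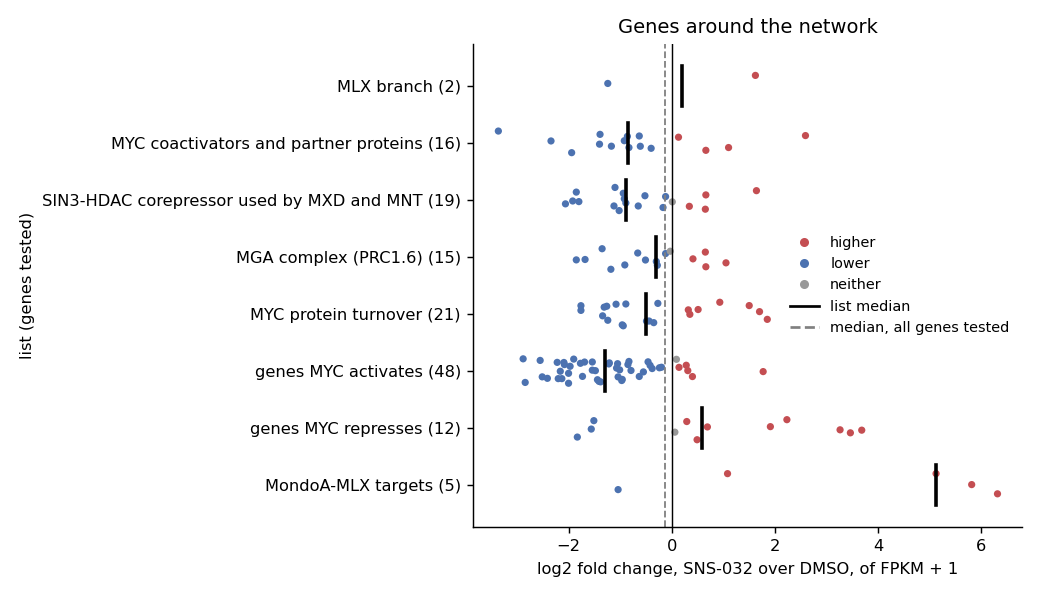
Log2 fold change of FPKM + 1, SNS-032 over DMSO, of the tested genes in each list around the network, one point for each gene, with the number tested in parentheses. Red, blue and grey points were higher, lower and neither at an adjusted p under 0.05, the black bar is the median of the list, from −1.30 for genes MYC activates to 5.12 for the targets of MondoA-MLX, and the dashed line is the median of all genes tested.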

How the data were processed

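RNA of 3 DMSO and 3 SNS-032 libraries was isolated with TRIzol and made into BGISEQ libraries. Per the paper's methods, reads were filtered and mapped with Bowtie2 and HISAT, and the authors calculated FPKM with RSEM. HISAT2 2.0.4 and GRCh38.p12 are named in the processing notes of the submitters. The deposited table holds FPKM to 2 decimals. Its columns with the q-value, the p-value and the log2 fold change from the comparison by the authors were not used.

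Log2(FPKM + 1) was compared by limma 3.58.1 (R 4.3.3; trend and robust options on), p-values being adjusted by Benjamini-Hochberg over all genes that averaged 1 FPKM or more with DMSO or SNS-032. The procedure was checked on simulated data. Gene positions came from GENCODE v29 on GRCh38, promoters from RefSeq on GRCh38.p14. Named genes are the 10 network genes, up to 3 rises and 3 falls per list by size at 5 FPKM or more, every gene of lists with up to 5 genes, and the nearest profiles. SNRNP27, RAB24 and PRELID1 were added for their overlap, NME2 as the paralog of NME1. A gene that this rule names is not reported here. The members and lists were chosen with earlier results of these data known. Alternatives were another pseudocount, filter, scaling or variance estimate, the replicate block and leaving out each library.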

Additional observations from a re-analysis of the deposited data

How the results depend on the processing

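The 8 network genes were refitted under 13 alternatives, 104 fold changes in all, and 98 kept their direction and their side of the threshold. MYC stayed lower (−0.69 to −0.34), MGA lower (−1.96 to −1.33), and MXD1 (3.61 to 4.12), MXI1 (1.22 to 1.55) and MXD3 (0.55 to 0.91) higher under each. The exceptions were MNT, MXD4 and MAX. MNT passed as lower with a limit of 5 FPKM (−0.15) and with libraries rescaled to the same sum (−0.21), and ranged from −0.20 to −0.09 when each library was left out. Centring libraries on their medians turned MAX to 0.10 and MNT to 0.15 and raised MXD4 to 0.40. It also turned the whole table to 6106 genes higher and 4699 lower, from 4882 and 6032, and gave 7 higher genes of the SIN3-HDAC list. A limit of 5 FPKM, with 9163 genes tested, left 3144 higher and 5165 lower, so that lower calls made up 62.2% of calls against 55.3%, the cause of which was not tested, and no filter gave 6804 higher and 6312 lower. Without the filter MYCL, at a log2 fold change of −0.21, also passed (adjusted p = 0.000555 from limma). With the replicate block 3 network genes were higher and 3 lower, no call on them changed, and 4862 genes of the table were higher and 5989 lower. Same-numbered libraries showed no shared deviation, with r across genes of −0.119, 0.0136 and −0.0164 for replicates 1, 2 and 3. Such values cannot tell whether they were grown or prepared together. The depth is unknown, and the values below 1 FPKM of MYCL and MYCN cannot be given a counting error.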
